A study of Mus musculus with 2 samples.

Results

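The genes described here are 8 chemokine ligands, Cxcl10, Cxcl2, Ccl3, Ccl4, Ccl5, Ccl6, Ccl9 and Xcl1, among the 31053 genes of a single-cell RNA sequencing study of mouse bone marrow. They were chosen by name, with their cell classes, their spread over cells and their differences between genotypes already known from these data, so every value below is a description. All 8 had unique molecular identifiers (UMIs, each standing for a captured transcript) in the cells kept, as did 20140 of the 31053 genes. The study asked how loss of LCR1 affects development of group 2 innate lymphoid cells (ILC2), and it deposited 2 libraries. The LCR1 knocked-out library (KO) came from pooled LCR1-/- mice and the wild-type library (WT) from pooled LCR1+/+ mice. Both pools were C57BL/6 animals of 8 to 12 weeks, with as many males as females, and both were sorted as viable, CD45+, lineage-negative and CD127+ cells. The labels do not say what LCR1 is, how many animals were pooled or which markers made up the lineage stain. With 1 library per genotype no test between genotypes is possible, intervals cover counting error only, and animals, sorts and library preparation cannot be told apart from genotype.

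Chemokines are small secreted proteins that bind G-protein-coupled receptors on leukocytes and direct their migration. Cxcl10 binds CXCR3, which natural killer (NK) cells and effector T cells carry, and is induced by interferons and by NF-kappaB signalling. Cxcl2 acts through CXCR2 on neutrophils, Ccl3, Ccl4 and Ccl5 attract monocytes and T cells, Ccl6 and Ccl9 are rodent chemokines that bind CCR1, and Xcl1 binds XCR1 on cross-presenting dendritic cells. Innate lymphoid cells, NK cells and basophils are known sources of several of them.

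The promoter sequences of Cxcl10 and Cxcl2 are shown because both ligands were higher in the KO library and both are textbook NF-kappaB targets. Each line gives 191 bases in the direction of transcription, from 220 to 30 bases before the annotated start, taken from RefSeq on GRCm38.p6, at chr5:92348919-92349109 on the minus strand for Cxcl10 and at chr5:90903679-90903869 on the plus strand for Cxcl2. The RefSeq start of Cxcl2 lies at 5:90903899, 28 bases downstream of the gene start given below from the other annotation, and distances are counted from it, while both annotations give the same start for Cxcl10. Capitals mark matches, on either strand, to 2 short forms of the kappaB site, GGG and TTCC with 2 or with 3 free bases between them, and to a short form of the interferon-stimulated response element, GAAA and GAAA with 2 free bases between them.
Cxcl10: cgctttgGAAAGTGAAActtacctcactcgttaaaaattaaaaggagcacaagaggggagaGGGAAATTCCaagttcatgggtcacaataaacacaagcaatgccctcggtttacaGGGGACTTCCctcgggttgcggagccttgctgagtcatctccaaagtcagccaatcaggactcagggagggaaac
Cxcl2: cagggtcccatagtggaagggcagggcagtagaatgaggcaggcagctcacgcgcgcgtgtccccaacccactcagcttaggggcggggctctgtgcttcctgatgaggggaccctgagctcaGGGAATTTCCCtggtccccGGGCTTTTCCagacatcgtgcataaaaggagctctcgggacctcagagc
The Cxcl10 window held the interferon form at 213 bases before the start and the longer kappaB form at 159 and at 104 bases before it, and the last of these overlaps a match to the shorter form at 103 bases. The Cxcl2 window held the longer kappaB form at 97 and 96 bases, which overlap on opposite strands, and at 78 bases. RefSeq promoters were given for 6 of the 8 genes, all but Ccl4 and Ccl5. Ccl9 had both kappaB forms on the minus strand at 35 bases, and Ccl3, Ccl6 and Xcl1 had none of the 3 motifs in the 250 bases before the start. Over 32851 promoter windows of that length, 4.98% held the shorter kappaB form, 4.65% the longer one and 2.98% the interferon form. These are letter matches and no binding was measured. The 2 printed promoters were picked with the KO over WT differences known, and a part of the matches in those differences was not tested.

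Of the 8 ligands, 5 lie close together on chromosome 11. On GRCm38, Ccl5 (ENSMUSG00000035042, 11:83525778-83530518, minus strand) to Ccl4 (ENSMUSG00000018930, 11:83662584-83664683, plus strand) span 138.9 kb, with Ccl9 (ENSMUSG00000019122, 11:83572919-83578636), Ccl6 (ENSMUSG00000018927, 11:83587882-83593087) and Ccl3 (ENSMUSG00000000982, 11:83647844-83649355) between them on the minus strand. Ccl9 and Ccl6 are 9.25 kb apart, and Ccl3 and Ccl4 are 13.2 kb apart. Cxcl2 (ENSMUSG00000058427, 5:90903871-90905938, plus strand) and Cxcl10 (ENSMUSG00000034855, 5:92346638-92348889, minus strand) are on chromosome 5 within 1445 kb, and Xcl1 (ENSMUSG00000026573, 1:164931644-164935527, minus strand) is on chromosome 1. All are protein-coding genes, and the 3′ tags counted for them cannot show which exon was transcribed at what level. Cxcl10 overlaps Art3 on the opposite strand, and Art3 had 5 UMIs in KO cells and 6 in WT cells.

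Barcodes under 1000 genes or over 10% mitochondrial UMIs were dropped, which left 4343 KO cells (51.2% of 8476 barcodes, 42601457 UMIs, median 7261 a cell) and 3290 WT cells (16.2% of 20293 barcodes, 29168870 UMIs, median 5371.5 a cell). Each was put in a class by a marker gate of at least 3 detected markers of its list and more than of any other of 15 lists. The exception was cells with at least 3 CD3 markers and as many or more NK or ILC1 markers, which went to the CD3-expressing class. Of the classes, 8 had 50 cells in each library and were compared: ILC2-like (758 KO and 901 WT cells), ILC precursor-like (540 and 141), NK or ILC1-like (404 and 108), CD3-expressing lymphocyte-like (266 and 93), lymphoid progenitor-like (1268 and 935), early B-like (53 and 70), plasmacytoid dendritic cell-like (62 and 89) and basophil or mast cell-like (191 and 352). ILC3-like cells (250 and 19) are given mainly for Cxcl10, because 19 WT cells are too few to compare, and 527 KO and 542 WT cells fell in no class. The gene for CD127, Il7r, was found in 99.3% of KO and 98.3% of WT ILC2-like cells but in 41.4% of KO and 55.7% of WT basophil or mast cell-like cells, against a sort for CD127+ cells. Many cells carried 3 or more markers of another list as well, among them 206 KO and 54 WT NK or ILC1-like cells and 252 KO and 86 WT CD3-expressing cells. In the CD3-expressing class this follows in part from the exception in the gate. Barcode sequences found in both libraries were carried by 28 KO and 15 WT kept cells. Summed immediate early transcripts, which report recent stimulation or handling, were higher in the KO library in all 8 classes, from 1.31-fold in NK or ILC1-like cells to 2.19-fold in plasmacytoid dendritic cell-like cells, and their part in the differences below was not tested.

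Levels are given as UMIs of the gene for every 1000000 UMIs of the class (CPM), with exact 95% Poisson intervals, and shares of cells with a UMI have exact Clopper-Pearson intervals. Because deeper cells show a gene more often, shares are also given after every cell was thinned to 1500 UMIs. Early B-like cells (median 11904 UMIs in KO and 3226.5 in WT), which are not known as a source of most of these ligands, give the background share that free RNA could leave. Median depths in KO and WT were 4521.5 and 5370 UMIs in ILC2-like, 8542 and 10947 in ILC precursor-like, 4566 and 5702 in NK or ILC1-like, 5611.5 and 7572 in CD3-expressing, 14035 and 10276 in lymphoid progenitor-like, 9047 and 9846 in plasmacytoid dendritic cell-like and 7010 and 3721.5 in basophil or mast cell-like cells. In bulk sums of a class, fewer expressing cells and less RNA per expressing cell cannot be told apart, so the spread over cells is described for each gene. The plot of levels by class shows 3 patterns of source: lymphoid classes for Cxcl10, Ccl5 and Xcl1, basophil or mast cell-like cells for Ccl3, Ccl4, Ccl6 and Ccl9, and no dominant class for Cxcl2. For Ccl4 this held in KO and in the mean of both libraries. In WT, Ccl4 was highest in NK or ILC1-like cells, at 224 CPM (191 to 260) against 135 (122 to 150) in basophil or mast cell-like cells, a value that rested on 2 cells.

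**Figure D1:**
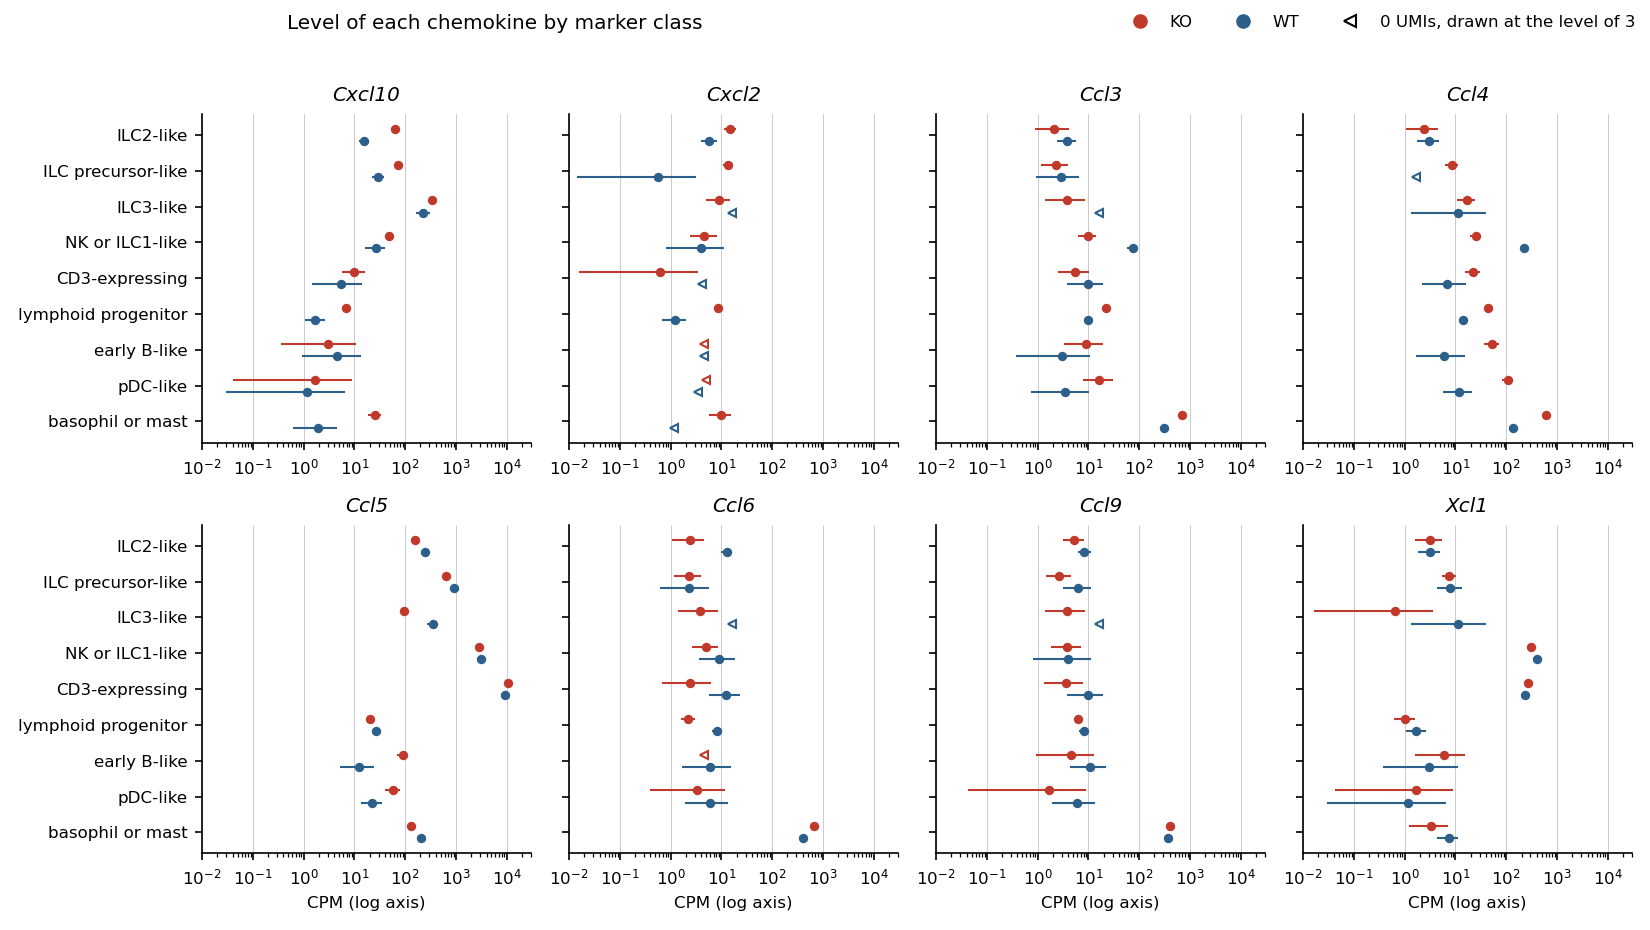
Level of each chemokine in 9 marker classes of the KO library (red, upper point) and the WT library (blue, lower point), in CPM on a log axis with exact 95% Poisson intervals for counting error; open triangles are classes with 0 UMIs drawn at the level of 3. Ccl9 was highest in basophil or mast cell-like cells at 403 (KO) and 377 (WT) CPM, and Ccl5 in CD3-expressing cells at 10609 (KO) and 9438 (WT) CPM.

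Cxcl10, the CXCR3 ligand, was highest in ILC3-like cells of both libraries and next highest in ILC precursor-like cells. ILC3-like cells had 345 CPM in KO (316 to 375, 538 UMIs) and 225 CPM in WT (162 to 306, 41 UMIs), but 35 of the 41 WT UMIs came from a single cell of 19. ILC precursor-like cells had 71.7 CPM in KO (64.6 to 79.3, 374 UMIs) and 29.4 in WT (22.0 to 38.5, 52 UMIs), a KO over WT ratio of 2.44 (1.82 to 3.33). This ratio was 1.63 after thinning and 5.81 without the 2 highest cells of each library, of which the WT class had 9 with a UMI in all. ILC2-like cells had 61.9 CPM in KO (54.2 to 70.3, 236 UMIs) and 15.3 in WT (12.3 to 18.8, 88 UMIs), a ratio of 4.05 (3.16 to 5.24). NK or ILC1-like cells had 48.6 CPM in KO and 26.2 in WT, a ratio of 1.86 (1.15 to 3.15). Of the 20 WT UMIs in this class 13 were in 1 cell, and the ratio was 8.38 without the 2 highest cells of each library and 0.860 without cells holding 3 markers of another list. Below these came basophil or mast cell-like cells with 25.5 CPM in KO and 1.92 in WT (47 and 5 UMIs, but 1.84-fold with 3 UMIs in each after thinning) and lymphoid progenitor-like cells with 6.94 CPM in KO and 1.69 in WT. In the KO order the intervals of ILC precursor-like and ILC2-like cells overlapped, as did those of ILC2-like and NK or ILC1-like cells, while ILC3-like cells stood apart from all of them.

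A small share of cells carried most Cxcl10. A UMI was found in 15.2% of KO (12.3 to 18.5) and 6.38% of WT (2.96 to 11.8) ILC precursor-like cells, and in 7.22% and 3.55% after thinning. In ILC2-like cells the share was 9.76% in KO (7.74 to 12.1) and 3.88% in WT (2.72 to 5.36), or 5.01% and 1.22% after thinning. Early B-like cells gave 3.77% in KO and 2.86% in WT, or 0% of 53 KO cells, which allows up to 6.72% by its exact interval, and 2.86% in WT after thinning. The thinned WT shares of ILC2-like, NK or ILC1-like and lymphoid progenitor-like cells, at 1.22%, 1.85% and 0.321%, were not above the early B-like share, which rests on 2 of 70 cells. Single WT cells nevertheless held up to 15 UMIs in the ILC2-like class and 13 in the NK or ILC1-like class. Among ILC2-like cells 10 of 758 in KO and 6 of 901 in WT held 50% of the UMIs, with 21 UMIs in the highest KO cell and 15 in the highest WT cell. ILC3-like cells of the KO library were the broadest source, with a UMI in 41.6% of cells and 50% of the UMIs in 18 cells (7.20%).

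The cells with Cxcl10 were compared with those without it inside the KO ILC precursor-like class, where 82 cells had a UMI (median 8380.5 UMIs a cell) and 458 had none (median 8542). By the rule of at least 2-fold with an interval leaving out 1, which 1.1% of the 8530 genes measured passed upward, 9 of 13 NF-kappaB subunits and targets were higher in the cells with Cxcl10. Nfkbia, the inhibitor that NF-kappaB itself induces, had 641 CPM with Cxcl10 and 285 without (2.25-fold). Traf1, an adaptor of tumour necrosis factor receptors, had 143 and 54.5 CPM (2.62-fold), Icam1, an adhesion molecule, 102 and 40.3 CPM (2.52-fold), and Bcl3, an atypical inhibitor protein, 23.8 and 7.46 CPM (3.19-fold). Of 12 interferon response genes 2 passed, Isg15 at 47.6 CPM with Cxcl10 and 16.5 without and Iigp1 at 28.8 and 13.6, and none of 11 immediate early genes did. In ILC2-like cells the NF-kappaB count was 2 of 11 in KO (background 1.14%) and 3 of 12 in WT (background 2.18%), and in KO ILC3-like cells it was 0 of 12 (background 0.523%). The lists were chosen with earlier results known, cells of a single library are not replicates, and differences between the classes were not tested.

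Cxcl2, the CXCR2 ligand, was sparse. The KO library held 354 UMIs in 97 of 4343 cells and the WT library 55 UMIs in 23 of 3290 cells. Its level averaged over both libraries was highest in ILC2-like cells, with 14.7 CPM in KO (11.1 to 19.1, 18 cells) and 5.73 in WT (3.94 to 8.04, 12 cells), a ratio of 2.56 (1.64 to 4.07), which was 5.02 without the highest 1% of cells. Lymphoid progenitor-like cells had 8.57 CPM in KO (168 UMIs in 44 cells) and 1.21 in WT (15 UMIs in 6 cells), a ratio of 7.08 (4.17 to 12.9). ILC precursor-like cells had 71 UMIs in KO and 1 in WT, a ratio of 24.1 (4.18 to 964), yet 65 of the 71 lay in 1 cell and the ratio was 1.12 when markers needed 2 UMIs. Basophil or mast cell-like cells had 18 UMIs in 5 KO cells and 0 in WT, at least 8.48-fold higher in KO against a floor of 3 UMIs in the WT class, with an exact lower limit of 6.21 once the counting error of the KO UMIs is included. Early B-like cells had 0 UMIs in both libraries, which allows up to 6.72% of the 53 KO and 5.13% of the 70 WT cells by the exact interval. The ILC2-like share with a UMI was 2.37% in KO and 1.33% in WT, or 1.06% and 0.333% after thinning, which lies within that limit. Few cells decided each of these values, since 3 of 758 KO and 2 of 901 WT ILC2-like cells held 50% of the UMIs.

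Ccl3, a CCR1 ligand, came mostly from basophil or mast cell-like cells, which held 71.0% of its UMIs in KO and 75.3% in WT. Its level there was 710 CPM in KO (672 to 750) and 302 in WT (282 to 324), a ratio of 2.35 (2.15 to 2.57). Many cells of the class carried it: 74.3% of KO (67.5 to 80.4) and 45.2% of WT (39.9 to 50.5) cells had a UMI, or 49.2% and 24.7% at 1500 UMIs a cell. Early B-like cells gave 9.43% in KO and 2.86% in WT, or 0% and 1.43% after thinning. The highest cell had 71 UMIs in KO and 26 in WT. Between 4000 and 12000 UMIs a cell, a range chosen after the data were seen, the ratio was 1.69, and without cells holding 3 markers of another list it was 1.82, both under 2-fold. Lymphoid progenitor-like cells had 21.7 CPM in KO and 10.0 in WT, a ratio of 2.17 (1.77 to 2.67). A UMI was found in 13.6% of KO and 8.24% of WT cells of this class, or 2.52% and 2.46% after thinning, when the ratio was 1.11.

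Ccl4, an inflammatory chemokine, shared the basophil or mast cell-like source but was spread more widely. In basophil or mast cell-like cells it had 603 CPM in KO (568 to 639, 1109 UMIs) and 135 in WT (122 to 150, 352 UMIs), a ratio of 4.45 (3.95 to 5.03). A UMI was found in 47.6% of KO (40.4 to 55.0) and 26.4% of WT (21.9 to 31.4) cells, or 33.0% and 13.6% after thinning. In this class 37 of 191 KO cells and 9 of 352 WT cells had 10 or more UMIs, and 13 KO and 15 WT cells held 50% of the UMIs. Between 4000 and 12000 UMIs a cell the ratio was 2.56. Plasmacytoid dendritic cell-like cells had 107 CPM in KO (65 UMIs in 15 of 62 cells) and 11.8 in WT (10 UMIs in 6 of 89 cells), a ratio of 9.07 (4.63 to 19.8). In KO 3 of these cells held 50% of the UMIs. After thinning the ratio was 2.87, from means of 0.0968 UMIs a cell in KO and 0.0337 in WT. Lymphoid progenitor-like cells had 44.6 CPM in KO and 14.4 in WT, a ratio of 3.11 (2.64 to 3.67). Early B-like cells were not at a low background for this gene: they had 51.9 CPM in KO (35 UMIs) and 6.07 in WT (4 UMIs), with a UMI in 24.5% and 2.86% of cells, or 9.43% and 1.43% after thinning. The KO shares of plasmacytoid dendritic cell-like cells (24.2%, thinned 8.06%) and lymphoid progenitor-like cells (23.7%, thinned 5.84%) were not above that of early B-like cells, which here give no low background to set them against. ILC precursor-like cells had 44 UMIs in KO, 22 of them in 1 cell, and 0 in WT, at least 4.97-fold higher in KO against a floor of 3 UMIs in the WT class, with an exact lower limit of 3.88 once the counting error of the KO UMIs is included. CD3-expressing cells had 22.0 CPM in KO and 6.86 in WT, and ILC2-like cells 2.36 in KO and 2.95 in WT.

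The balance of Ccl4 and Ccl3 differed between classes. Ccl4 made up 45.9% of the 2 genes' UMIs in KO basophil or mast cell-like cells (43.9 to 47.9), 67.3% in KO lymphoid progenitor-like cells (64.7 to 69.9), 85.4% in KO early B-like cells (70.8 to 94.4) and 86.7% in KO plasmacytoid dendritic cell-like cells (76.8 to 93.4). In WT it was 30.9% in basophil or mast cell-like cells (28.3 to 33.7) and 58.9% in lymphoid progenitor-like cells (53.2 to 64.5). Lymphoid progenitor-like cells without any UMI of the 8 basophil or mast cell markers numbered 545 in KO and 214 in WT. They had 51.2 CPM of Ccl4 in KO (46.3 to 56.4, 407 UMIs) and 12.3 in WT (7.40 to 19.2, 19 UMIs), a ratio of 4.16. Such a marker was found in 55.3% of KO cells with Ccl4 and 57.5% of KO cells without it, and in 87.5% and 75.8% of the WT cells. As it was found in 57.0% of all KO and 77.1% of all WT cells of the class, this split cannot show a source. Those markers summed to 74.4 CPM in KO and 155 in WT lymphoid progenitor-like cells, with all 8 detected in each library, and their part in the levels was not tested.

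In NK or ILC1-like cells Ccl4 went the other way, with 25.1 CPM in KO (19.4 to 32.0, 65 UMIs) and 224 in WT (191 to 260, 171 UMIs), a ratio of 0.112 (0.0830 to 0.150), or 8.92-fold higher in WT. The share of cells with a UMI was alike, at 4.70% in KO (19 of 404, 2.85 to 7.25) and 4.63% in WT (5 of 108, 1.52 to 10.5), or 1.98% and 1.85% after thinning. The thinned mean was 0.0495 UMIs a cell in KO and 0.148 in WT, a smaller gap, with 10 and 8 UMIs in the highest cell. Before thinning, the 3 highest KO cells had 16, 14 and 11 UMIs, and the 5 WT cells had 120, 48, 1, 1 and 1. The WT value thus rested on 2 cells. The cell with 120 Ccl4 UMIs had 30662 UMIs in all, with 7 of 8 NK or ILC1 markers, 5 ILC precursor markers and 45 Ccl3 UMIs, and the cell with 48 had 7260 UMIs, 5 NK or ILC1 markers and 3 ILC precursor markers. The KO cell with 14 had 91637 UMIs, the most of any kept KO cell, with 7 NK or ILC1 markers and 6 basophil or mast cell markers. The KO cells with 16 and 11 had 2180 and 7339 UMIs, 5 NK or ILC1 markers each, and 2 and 4 ILC precursor markers. Without the 2 highest cells of each library, a choice made after the data were seen, the KO library had 35 UMIs and the WT library 3, and the ratio was 3.39 (1.07 to 17.3), which is higher in KO. Leaving out cells with 3 or more markers of another list left 198 KO and 54 WT cells, 24 and 2 UMIs and a ratio of 3.53 (0.875 to 30.8). A basophil or mast cell marker was found in 73.7% of KO cells with Ccl4 and 47.5% of KO cells without it, and in 100% and 58.3% of the WT cells. Leaving out cells with such a marker left 16 Ccl4 UMIs in 207 KO cells (14.4 CPM) and 0 in 43 WT cells. Such a marker was found in 48.8% of all KO and 60.2% of all WT cells of the class, and the WT excess rested on 2 cells. This split therefore cannot show a source, which was not tested. The KO share of NK or ILC1-like cells lay under the early B-like share of 24.5%, which comes from deeper cells, and it also did so after thinning. Early B-like cells of the KO library, however, give no low background for this gene. The thinned WT share of 1.85% lay inside the WT early B-like interval of 0.0362% to 7.70%. Ccl3 in the same class had 9.65 CPM in KO (25 UMIs in 16 cells) and 74.6 in WT (57 UMIs in 8 cells), a ratio of 0.129 (0.0775 to 0.211), and 45 of the 57 WT UMIs were in the cell with 120 Ccl4 UMIs. Without the 2 highest cells its ratio was 0.518. After thinning the mean of Ccl3 was 0.0198 UMIs a cell in KO and 0.0556 in WT.

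**Figure D2:**
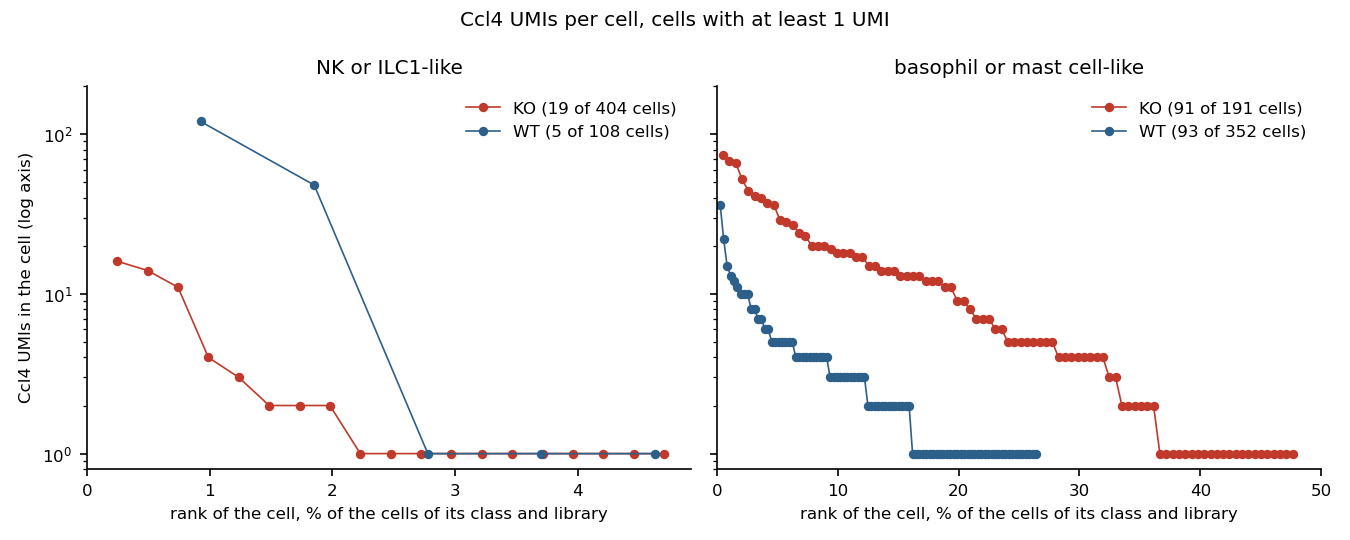
Ccl4 UMIs per cell (log axis) against the rank of the cell as a percentage of its class, for the KO library (red) and the WT library (blue), with cells at 0 left out. In NK or ILC1-like cells the highest KO cell has 16 UMIs, against 2 WT cells with 120 and 48, while in basophil or mast cell-like cells the KO cells lie above the WT cells along the whole ranking.

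Cells with Ccl3 were more often cells with Ccl4. Among basophil or mast cell-like cells Ccl4 was found in 55.6% of KO cells with Ccl3 and 24.5% of KO cells without it, and in 47.8% and 8.81% of the WT cells. After thinning the shares were 52.1% and 14.4% in KO and 31.0% and 7.93% in WT. The gap was present at equal depth in both libraries, and its size was not compared between them.

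Ccl5, a ligand of CCR1 and CCR3 that cytotoxic lymphocytes carry in large amounts, was within 2-fold between the libraries in its 2 leading classes. CD3-expressing lymphocyte-like cells had 10609 CPM in KO (17366 UMIs) and 9438 in WT (6883 UMIs), a ratio of 1.12 (1.09 to 1.16), with a UMI in 96.6% of KO and 90.3% of WT cells. Without cells holding 3 markers of another list the ratio was 2.10, from the 14 KO and 7 WT cells that were left. The gate itself places cells with NK or ILC1 markers in this class, so this filter removes most of it and cannot check the ratio. NK or ILC1-like cells had 2818 CPM in KO and 3067 in WT, a ratio of 0.919 (0.877 to 0.963), with a UMI in 85.6% and 88.0% of cells. In both classes most cells carried it, and 50% of the UMIs were spread over 33.8% of KO and 28.0% of WT CD3-expressing cells. ILC precursor-like cells had 651 CPM in KO and 923 in WT, and ILC2-like cells 158 in KO and 248 in WT, where 1 WT cell held 302 of 1429 UMIs. Without cells that had a CD3-list marker the ILC2-like levels were 157 CPM in KO and 159 in WT. Without cells that had a marker of the NK or ILC1 list they were 123 CPM in KO (110 to 138) and 160 in WT (147 to 174). Basophil or mast cell-like cells had 129 CPM in KO and 208 in WT, with a UMI in 8.90% and 26.1% of cells, or 2.09% and 18.8% after thinning. In KO 1 cell held 132 of the 237 UMIs of this class and the next 50, and the ratio of 0.619 ran from 0.0581 to 1.05 over the alternatives. Early B-like cells gave 9.43% in KO and 10.0% in WT, or 3.77% and 4.29% after thinning, and the KO basophil or mast cell-like share was not above these. Early B-like cells had 61 Ccl5 UMIs in KO and 8 in WT, but 56 of the 61 were in 1 cell, and plasmacytoid dendritic cell-like cells had 35 and 19, with 30 of the 35 in 1 cell, and both ratios (7.45 and 2.57) turned under 1 when the 2 highest cells were left out, at 0.589 and 0.638. In ILC3-like cells it had 95.6 CPM in KO and 352 in WT, where 1 cell held 53 of the 64 WT UMIs.

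Ccl6, a CCR1 ligand, was found almost only in basophil or mast cell-like cells, which held 92.2% of its UMIs in KO and 77.9% in WT. They had 658 CPM in KO (621 to 696) and 413 in WT (388 to 438), a ratio of 1.59 (1.47 to 1.73), with a UMI in 41.4% of KO and 29.0% of WT cells, or 31.9% and 19.3% after thinning. The ratio passed 2-fold after thinning, at 2.07, and was 0.958 between 4000 and 12000 UMIs a cell. It was carried by fewer cells of the class than Ccl3 or Ccl9. In KO 11 cells (5.76%) and in WT 13 cells (3.69%) held 50% of the UMIs, and the highest cells had 123 UMIs in KO and 62 in WT. It was called lower in KO in 2 other classes: ILC2-like cells had 2.36 CPM in KO (9 UMIs) and 12.7 in WT (73 UMIs), a ratio of 0.186 (0.0819 to 0.373), and lymphoid progenitor-like cells had 2.19 in KO (43 UMIs) and 8.07 in WT (100 UMIs), a ratio of 0.272 (0.186 to 0.392). ILC precursor-like cells had 2.30 CPM in KO and 2.26 in WT, from 12 and 4 UMIs. The thinned shares were 0.132% and 1.22% in ILC2-like cells and 0.158% and 2.67% in lymphoid progenitor-like cells, against 0% of 53 KO and 1.43% of 70 WT early B-like cells. The WT ILC2-like share of cells was thus not above the early B-like share, and the WT lymphoid progenitor-like share lay inside the early B-like interval of 0.0362% to 7.70%. The WT ILC2-like level, however, rested on few cells. Of 901 cells, 3 had 10 or more UMIs and held 50% of the 73, with 16 in the highest, and 34 cells had 1 UMI each. Without cells that had a basophil or mast cell marker, the ILC2-like ratio was 0.508 (0.127 to 1.86, 5 KO and 7 WT UMIs) and the lymphoid progenitor-like ratio 0.459 (0.219 to 1.03).

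Ccl9, the other CCR1 ligand of the pair, was at a similar level in both libraries. Basophil or mast cell-like cells had 403 CPM in KO (375 to 433) and 377 in WT (354 to 401), a ratio of 1.07 (0.971 to 1.18), which was 1.51 for means per cell and 0.708 between 4000 and 12000 UMIs a cell. A UMI was found in 63.4% of KO and 41.8% of WT cells, or 38.7% and 26.4% after thinning. In KO 24 cells (12.6%) and in WT 23 cells (6.53%) held 50% of the UMIs. Lymphoid progenitor-like cells had 6.33 CPM in KO and 8.07 in WT, and early B-like cells 4.45 in KO and 10.6 in WT. Over all kept cells Ccl9 had 22.5 CPM in KO and 42.2 in WT, a ratio of 0.533 (0.490 to 0.581), while basophil or mast cell-like cells made up 4.40% of KO cells and 10.7% of WT cells. Cells with Ccl6 more often held Ccl9, at 74.7% of KO cells with Ccl6 and 55.4% without, and 60.8% and 34.0% of WT cells.

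Xcl1, the XCR1 ligand, was found in NK or ILC1-like and CD3-expressing lymphocyte-like cells, and in few others. NK or ILC1-like cells had 308 CPM in KO (287 to 330, 797 UMIs) and 399 in WT (356 to 446, 305 UMIs), a ratio of 0.771 (0.675 to 0.883). CD3-expressing cells had 274 CPM in KO (249 to 300) and 237 in WT (203 to 275), a ratio of 1.15 (0.966 to 1.38). It was a gene of many cells with few UMIs each. A UMI was found in 62.4% of KO and 62.0% of WT NK or ILC1-like cells, or 33.9% and 35.2% after thinning, and in 62.4% of KO and 59.1% of WT CD3-expressing cells. The early B-like share was 1.89% in KO and 2.86% in WT. Of the KO NK or ILC1-like cells, 148 had 2 to 9 UMIs and 11 had 10 or more, and 47 cells (11.6%) held 50% of the UMIs, against 12 cells (11.1%) in WT.

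**Figure D3:**
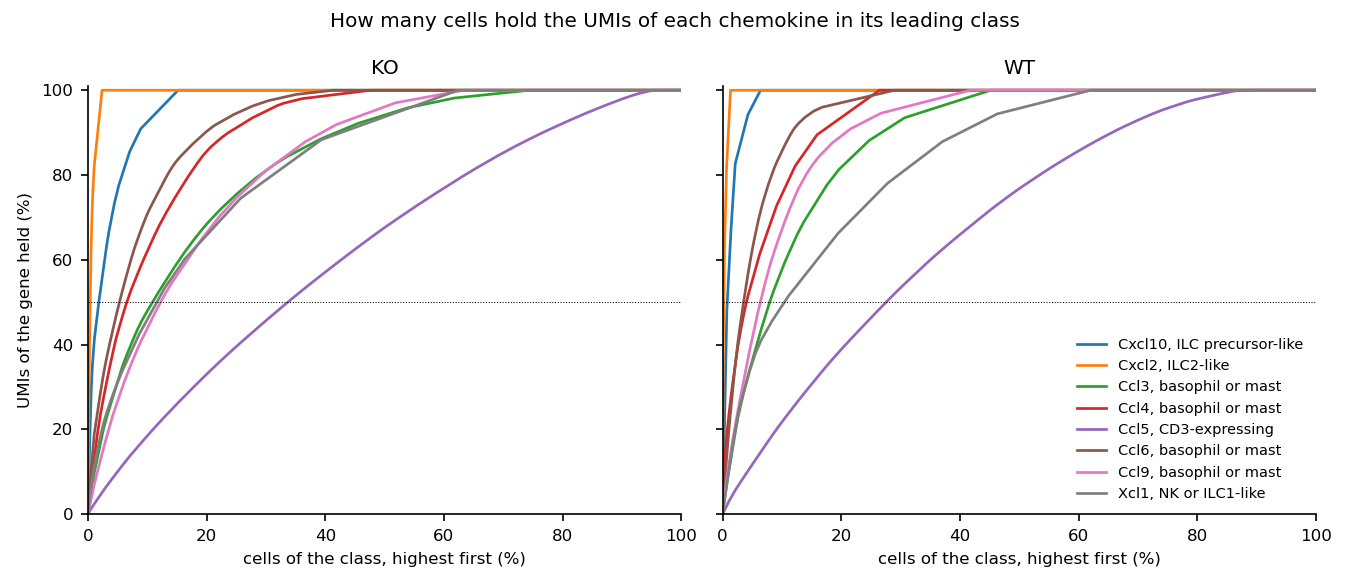
Share of each chemokine's UMIs (y axis, %) held by a rising share of the cells of its leading class, highest cells first (x axis, %), in the KO library (left) and the WT library (right); the dotted line is 50%. Ccl5 needs 33.8% of KO cells to reach the line and Xcl1 11.6%, while the line is reached by 1.85% of KO ILC precursor-like cells for Cxcl10.

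Side by side, the differences between libraries fell into those that were higher in KO, lower in KO and neither. A member was called when it had at least 50 UMIs over both libraries, differed at least 2-fold and had an interval leaving out 1. In ILC2-like cells 5 of 8 members had the UMIs and 2 were called higher (Cxcl10 and Cxcl2) and 1 lower (Ccl6), where 0.62% of all genes measured were higher and 2.71% lower. In ILC precursor-like cells 2 of 4 were higher and none lower (1.72% of genes higher and 0.609% lower). NK or ILC1-like cells had none of 5 higher and 2 lower, Ccl3 and Ccl4 (1.07% and 0.825%), and CD3-expressing cells none of 2 in either direction (1.09% and 0.716%). Lymphoid progenitor-like cells had 4 of 7 higher, Cxcl10, Cxcl2, Ccl3 and Ccl4, and 1 lower, Ccl6 (0.91% and 0.508%). Basophil or mast cell-like cells had 3 of 6 higher, Cxcl10, Ccl3 and Ccl4, and none lower (0.64% and 1.56%). Early B-like cells had 1 of 1 higher (1.15% and 1.1%) and plasmacytoid dendritic cell-like cells 2 of 2 (0.907% and 1.17%). Over all kept cells 3 of 8 were higher, Cxcl10, Cxcl2 and Ccl4, and none lower (1.8% and 0.987%), and ILC3-like cells had none of 2 higher and 1 lower, Ccl5 (4.61% and 2.95%). Since the members were chosen with these differences in view, nothing is read from the counts.

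**Figure D4:**
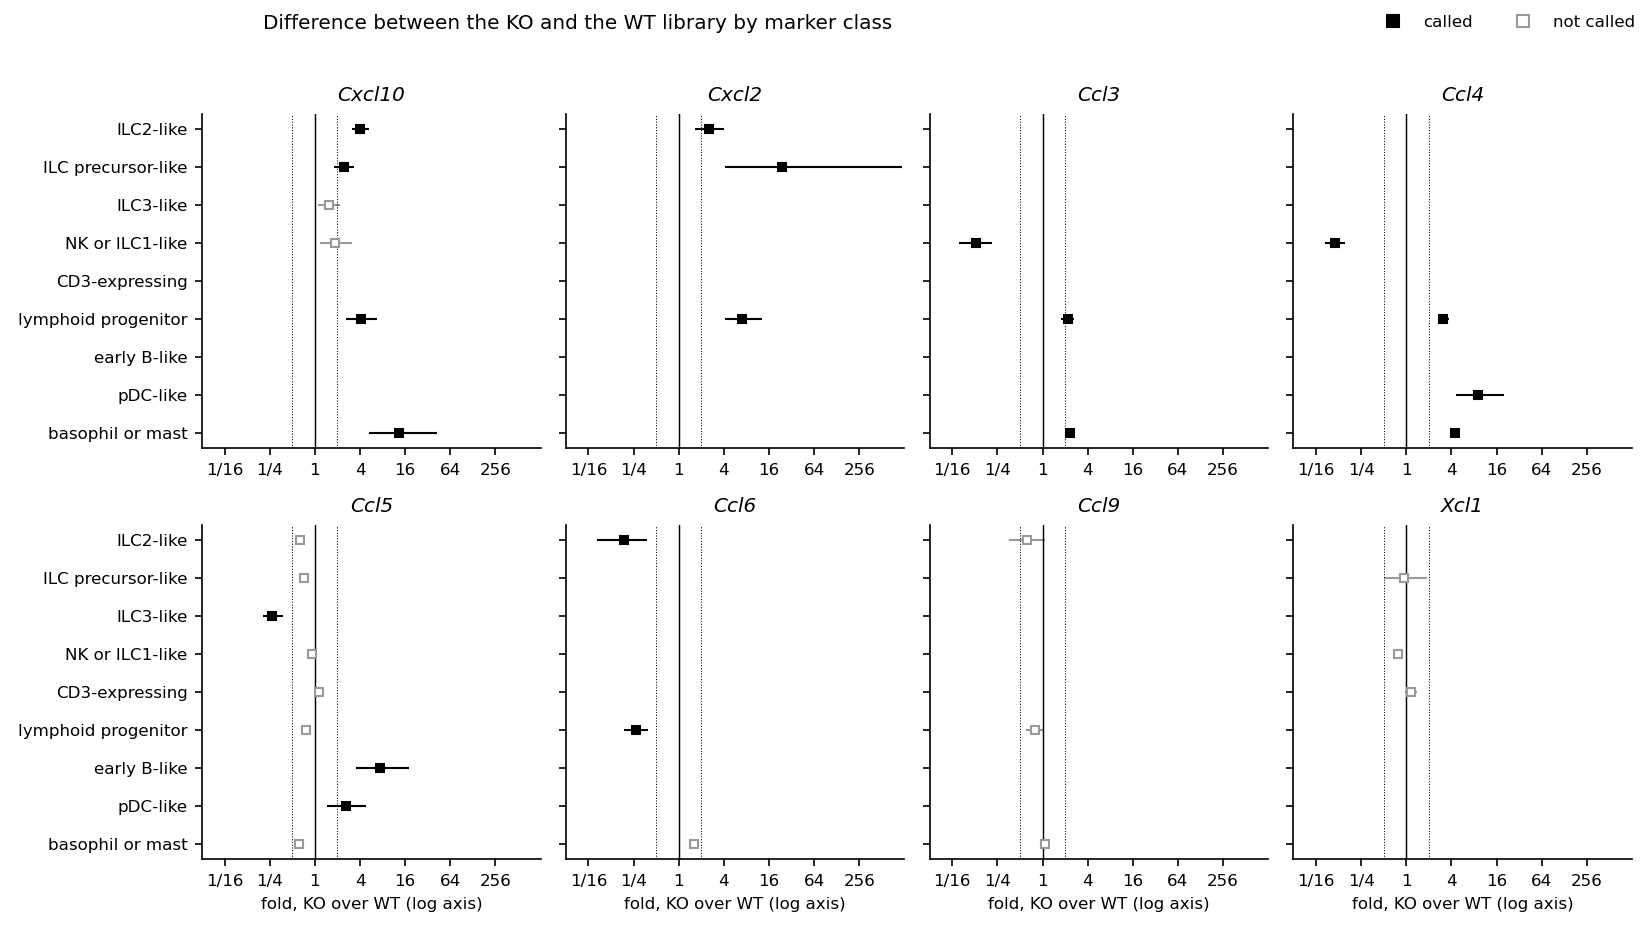
Fold of KO over WT for each chemokine in each class with at least 50 UMIs over both libraries, on a log axis with exact binomial intervals; filled squares pass the 2-fold rule, dotted lines mark 2-fold either way. Ccl4 stood at 4.45 in basophil or mast cell-like cells and at 0.112 in NK or ILC1-like cells, and Ccl5 and Xcl1 stayed within 2-fold in CD3-expressing and NK or ILC1-like cells.

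Other genes of the same pathways were described from lists. Of all genes measured, 0.62% to 1.72% were called higher in KO over the 8 classes. Immediate early genes were called higher in KO for 2 of 11 in ILC2-like and 5 of 11 in ILC precursor-like cells. The counts were 1 of 11 in NK or ILC1-like, 4 of 11 in CD3-expressing and 6 of 12 in lymphoid progenitor-like cells. They were 4 of 9 in early B-like, 6 of 9 in plasmacytoid dendritic cell-like and 5 of 9 in basophil or mast cell-like cells. None of these immediate early genes was called lower in these classes. Their summed level in basophil or mast cell-like cells was 8960 CPM in KO and 4135 in WT, and their median log2 ratio of CPM + 5 there was 1.07, beside -0.05 over all genes measured. NF-kappaB subunits and targets were called higher in KO for 2 of 13 in ILC2-like, 2 of 13 in ILC precursor-like and none of 12 in NK or ILC1-like cells. The counts were 3 of 13 in lymphoid progenitor-like and 3 of 12 in basophil or mast cell-like cells. In CD3-expressing cells, where no member was called, the count was 3 of 11. It was 1 of 4 in early B-like and 2 of 5 in plasmacytoid dendritic cell-like cells, and none of these NF-kappaB genes was called lower. Their median log2 ratio was 0.75 in ILC precursor-like cells (-0.02 over all genes) and -0.01 in basophil or mast cell-like cells. Tnfaip3, a feedback inhibitor of NF-kappaB, had 104 CPM in KO and 35.6 in WT ILC precursor-like cells (2.93-fold) and 126 and 49.6 CPM in basophil or mast cell-like cells (2.53-fold). The summed interferon response genes had ratios of 0.814 to 1.06 over the 8 classes. Of these genes 1 of 12 was called in ILC precursor-like cells, Isg15 with 21.3 CPM in KO and 9.61 in WT, in plasmacytoid dendritic cell-like cells 1 of 4 was called, Irf1 with 98.5 in KO and 42.3 in WT, and in basophil or mast cell-like cells 1 of 9 was called, Ifi47 with 18.5 in KO and 41.5 in WT. Among receptors of the members, Ccr1 in basophil or mast cell-like cells had 235 CPM in KO and 215 in WT, and Cxcr3 in NK or ILC1-like cells 134 in KO and 148 in WT. Of 28 other chemokine ligands listed, 26 were found by symbol, 18 had a UMI and 6 had at least 50 UMIs.

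The genes whose level over classes was most like each member's were named by the Pearson correlation of log2(CPM + 5) over 16 sums, 8 classes in 2 libraries, among 10940 genes with 200 UMIs. The sums share libraries and class totals, so r is a description. For Ccl6 these were Mcpt8 (r = 0.989), Prss34 (0.989) and Ms4a2 (0.985), and for Ccl9 Ctsg (0.990), Fcer1a (0.989) and Cyp11a1 (0.986), of which all but Ctsg are in the list that defined the class. Xcl1 was most like Samd3 (0.993), Klrb1c (0.987), an NK or ILC1 marker of the gate, and Klrc2 (0.987), and Ccl5 most like Lpcat4, Ms4a4b and Nrbp1 (0.949 each). Ccl4 was most like Ccl3 (0.879), Dusp6 (0.862) and Hspa13 (0.802), and Ccl3 like Igsf6 (0.923), Id1 (0.913) and Hgf (0.901). Cxcl10 was less sharply matched, with Zfp462 (0.873), Tmem140 (0.870) and Tcrg-C4 (0.869), and Cxcl2 with Ppp1r10 (0.882), 4930481A15Rik (0.782) and Cxcl10 (0.774). Within the members, r was 0.975 for Ccl6 and Ccl9 and 0.883 for Ccl5 and Xcl1.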

How the data were processed

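Single-cell 3′ RNA libraries (10x Genomics kit v3.1) were measured for the KO and the WT pool, 1 library each, so the libraries are not replicated and no p-values are given. The deposited files hold UMI counts per gene and barcode, not normalized. Per the file headers they were written by Cell Ranger 3.1.0, and per the submitters' processing notes the build is mm10 and Seurat was among the tools, with no role given. The aligner and annotation are not given in the sources used here. Coordinates are from an annotation of GRCm38, and sequences from RefSeq GRCm38.p6.

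From these counts, barcodes with at least 1000 genes and at most 10% mitochondrial UMIs were kept, and cells were gated by 15 marker lists holding 116 genes (at least 3 markers detected, more than of any other list; NK-leading cells with at least 3 CD3 markers went to the CD3 class). CPM used class totals. Ratios had exact binomial intervals at 95%. Intervals and floors cover counting error only. A gene was called at 2-fold or more with an interval leaving out 1 and at least 50 UMIs over both libraries. The leading class of a member is that with the highest CPM averaged over both libraries among classes with 50 cells in each. Named genes were the 8 members, listed genes with 50 UMIs (at most the 4 largest ratios per list and class) and the 3 most correlated genes of each member. Bcl3, Icam1, Traf1, Nfkbia and Iigp1 inside the KO ILC precursor-like class were named after their values were seen. The doublet caller Scrublet (scanpy 1.11.5) marked 48 of 4343 KO cells (1.11%) and 0 of 3290 WT cells. Its calls were not used: all cells were kept, and the cells with the highest scores were left out in an alternative. The members and gene lists were chosen with earlier results of these data known. Software was Python 3.11.15, numpy 2.4.6, scipy 1.17.1, pandas 2.3.3 and matplotlib 3.10.9, with TMM factors from edgeR 4.0.16. The call rule was tested on simulated data. Alternatives changed the filters, the gate, depth, doublets, scaling and the highest cells.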

Additional observations from a re-analysis of the deposited data

Results flagged for a closer look

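Ccl4 and Ccl3 ran in opposite directions between the libraries in different classes, which is why they are listed here. The KO over WT ratio of Ccl4 was 4.45 in basophil or mast cell-like cells, 3.11 in lymphoid progenitor-like cells and 9.07 in plasmacytoid dendritic cell-like cells (2.87 after thinning), against 0.112 in NK or ILC1-like cells. The ratio of Ccl3 was 2.35 in basophil or mast cell-like cells and 2.17 in lymphoid progenitor-like cells, against 0.129 in NK or ILC1-like cells. The differences between classes were not tested, since each genotype has 1 library. The NK or ILC1-like values rest on 2 WT cells for Ccl4 and on 1 of them for Ccl3.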

How the results depend on the processing

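Of 121 alternatives to the ratios of the 8 members in their leading classes, 87 moved them by less than their interval, 34 moved them further, and none of the 4 that were called changed direction. With at least 500 genes a cell, the ratio became 2.71 for Ccl3, 5.34 for Ccl4, 1.90 for Ccl6 and 1.32 for Ccl9 in basophil or mast cell-like cells. With at most 5% mitochondrial UMIs it was 4.44 for Cxcl2 and 1.75 for Ccl6. A gate of 2 markers gave 1.08 for Ccl5 in CD3-expressing cells, a lead of 2 markers 1.05 for Ccl5 and 1.46 for Ccl6, and markers with 2 UMIs 4.61 for Cxcl10. Thinning gave 1.63 for Cxcl10, 2.78 for Ccl3, 2.07 for Ccl6 and 1.43 for Ccl9. Without cells holding 3 markers of a 2nd list the ratios were 4.03 for Cxcl10, 1.82 for Ccl3, 2.10 for Ccl5 (from 14 KO and 7 WT cells), 0.943 for Ccl9 and 0.913 for Xcl1. For Ccl5 this filter removes most of the class because of the gate itself, so it cannot check that ratio. Without the highest doublet scores they were 1.79 for Ccl6 and 1.18 for Ccl9. TMM scaling gave 1.18 for Ccl5, and means per cell 2.59 for Ccl3, 1.18 for Ccl5, 2.25 for Ccl6 and 1.51 for Ccl9. Without the highest 1% of cells they were 5.02 for Cxcl2 and 5.27 for Ccl4. Among choices added after the data were seen, cells of 4000 to 12000 UMIs gave 1.69 for Ccl3, 2.56 for Ccl4, 0.958 for Ccl6 and 0.708 for Ccl9, and leaving out the 2 highest cells gave 5.81 for Cxcl10 and 1.46 for Ccl6. The 14 other called ratios changed direction in 18 of 207 alternatives: for Ccl4 in NK or ILC1-like cells at 3.53 and 3.39, given in the report, for Ccl5 in early B-like cells at 0.451, 0.243, 0.510, 0.826, 0.589 and 0.281, and for Ccl5 in plasmacytoid dendritic cell-like cells at 0.102, 0.504, 0.434, 0.319, 0.148, 0.397, 0.737, 0.593, 0.638 and 0. Without the 50-UMI minimum the genes past the rule numbered 617 in ILC2-like, 504 in ILC precursor-like, 378 in NK or ILC1-like, 381 in CD3-expressing, 420 in lymphoid progenitor-like, 432 in early B-like, 386 in plasmacytoid dendritic cell-like and 547 in basophil or mast cell-like cells, against 311, 214, 133, 96, 162, 88, 96 and 172 with it. Where no value shows a cause, the cause was not tested. No paired analysis was possible because each genotype has 1 library.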

Other observations

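Of the other chemokine ligands, 2 of the 6 with at least 50 UMIs were past the 2-fold rule upward over all kept cells and 1 downward. Pf4, a platelet and megakaryocyte chemokine, had 3.05 CPM in KO (130 UMIs) and 0.206 in WT (6 UMIs), and of the classes described above ILC precursor-like cells held 1 of the KO UMIs and the others 0. Cx3cl1, the membrane-bound ligand of CX3CR1, had 1.10 CPM in KO (47 UMIs) and 0.514 in WT (15 UMIs), and ILC3-like cells held 28 of the KO and 6 of the WT UMIs, at 18.0 CPM in KO and 33.0 in WT. Cxcl16, the ligand of CXCR6, had 0.211 CPM in KO (9 UMIs) and 1.71 in WT (50 UMIs), and basophil or mast cell-like cells held 0 of the KO and 22 of the WT UMIs. Ccl25 was the most abundant of the 6, at 28.9 CPM in KO and 30.3 in WT, and its level ran from 20.4 to 47.5 CPM over the classes in KO and from 13.7 to 41.3 in WT. These genes were picked after their values were seen, and with 1 library per genotype no test was possible.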
